A study of Mus musculus with 30 samples.

Results

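Regulators of blood stem cell self-renewal, 10 of the 55471 genes in each deposited count table, were followed in mouse hematopoietic stem cells (HSCs) and multipotent progenitors (MPPs) after treatment with MTP10-HDL or phosphate-buffered saline (PBS). The genes were taken by name: Hlf, Mecom, Prdm16, Erg, Etv6, Lyl1, Gfi1b, Bmi1, Mllt3 and Msi2. The first 7 encode DNA-binding transcription factors. Bmi1 and Mllt3 encode chromatin proteins and Msi2 encodes an RNA-binding protein, so the 10 genes are described here as self-renewal regulators. All 10 passed the filter on low counts in both cell types, where 16631 genes were tested in HSCs and 15449 in MPPs.

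MTP10-HDL is a nanoparticle of high-density lipoprotein loaded with a muramyl peptide, a piece of bacterial cell wall, and the study's title names it as a promoter of trained immunity, the lasting adaptation of innate immune cells and their progenitors. RNA was sequenced from C57BL/6 mice, with 7 PBS and 6 MTP10-HDL libraries of HSCs and 2 PBS and 3 MTP10-HDL libraries of MPPs, each made from cells pooled from 4 mice. For the MPP mice the labels give 3 injections within 5 days, killing on the day after the last, and sorting of lineage-depleted marrow of femurs and tibias by flow cytometry. The schedule of the HSC mice, the sorting markers, and the age and sex of the mice are not stated in the labels used here. Each p-value therefore measures the spread between pools and not between single mice. HSC RNA was amplified before library construction, whereas MPP RNA was selected for poly-A tails, so expression levels were not compared between the cell types.

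Blood stem cells keep their number by dividing without losing potency, and most of them are quiescent in adult marrow. A small network of transcription factors, several of which were found as leukemia genes, maintains this state, and multipotent progenitors lose much of it as they become committed. Chromatin regulators such as Bmi1 keep cell cycle inhibitors and lineage genes silent in the same cells, while Msi2 binds messenger RNAs and controls their translation.

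The DNA before the transcription start was compared first, since 2 of the genes, Hlf and Gfi1b, had the largest log2 differences in MPPs. Sequences are from RefSeq on the GRCm38.p6 assembly, where all 10 genes were found, with 16 start windows among 32851 windows in the table. Capitals mark matches, on either strand, to 5 motifs: the cyclic AMP response element TGACGTCA, the GATA site TGATAA, the E-box CACGTG, the interferon-stimulated response element core GAAANNGAA and the ETS site CCGGAA. No 2 matches overlapped in the windows of the 10 genes.
Hlf, chr11:90390918-90391167, minus strand, 250 bases up to the start: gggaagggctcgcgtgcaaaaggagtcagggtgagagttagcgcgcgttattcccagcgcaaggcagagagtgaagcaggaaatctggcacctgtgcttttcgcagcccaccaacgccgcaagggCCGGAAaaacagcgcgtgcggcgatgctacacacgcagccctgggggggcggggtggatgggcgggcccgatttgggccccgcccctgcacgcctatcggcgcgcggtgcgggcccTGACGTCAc
Gfi1b, chr2:28621983-28622232, minus strand, 250 bases up to the start: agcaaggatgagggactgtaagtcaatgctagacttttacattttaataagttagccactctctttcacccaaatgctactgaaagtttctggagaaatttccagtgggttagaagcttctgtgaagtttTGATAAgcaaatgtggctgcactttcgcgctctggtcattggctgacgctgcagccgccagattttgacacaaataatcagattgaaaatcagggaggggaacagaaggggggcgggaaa
Stretch shared by Mecom (chr3:30509710-30509733, minus strand) and Prdm16 (chr4:154636841-154636864, minus strand): GCGCATGTGCGAAGGTGTCCAAAC
The Hlf window held a cyclic AMP response element that began 9 bases before the start, a motif found in 1.55% of all windows of 250 bases. It also held an ETS site that began 125 bases before the start, found in 12% of windows. The bases G and C made up 67.2% of the Hlf window and 44.4% of the Gfi1b window, against a median of 52.4% over all windows. The shares of windows with a motif were not matched for this. The Gfi1b window held a GATA site that began 120 bases before the start, and 7.94% of all windows held this motif. Windows of Mecom held a GATA site too, those of Msi2 a cyclic AMP response element and those of Lyl1 an ETS site. E-boxes (6.02% of all windows) were found for Bmi1 and Msi2, and the interferon-stimulated core (7.13%) for Mecom and Erg. Mecom and Prdm16, which encode related zinc finger proteins, shared at least 24 bases without mismatch downstream of their starts. The stretch ran from base 27 in Mecom and base 10 in Prdm16. It ended at the last base searched for Mecom, so its full length is not known. These capitals mark the shared bases and no motif, and 2 of the 32851 windows held them, while the next longest stretch shared by 2 of the 10 genes had 14 bases. The matches describe these letters only, and no binding was measured.

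HSC libraries held 4064155 to 7879858 counts and MPP libraries 11252479 to 32769369. Mitochondrial ribosomal RNA took 12.4% to 27.9% of the HSC counts and 0.0734% to 0.185% of the MPP counts. The shares of ribosomal RNA given elsewhere leave it out. The least covered of the 10 genes was Gfi1b, with 78 to 228 reads per HSC library, and Hlf had 2062 to 7097. Stem cell markers were present in the HSC libraries: Procr was at 16.5 to 26.6 CPM (reads relative to the scaled library total), Slamf1 at 24.0 to 47.9 CPM and Fgd5 at 16.1 to 61.4 CPM. In MPP libraries Slamf1 was at 0.649 to 2.04 CPM, and the progenitor markers Flt3 (665 to 900 CPM) and Cd48 (57.2 to 131 CPM) were present. The markers of both stages were read in both cell types: MPP libraries also held Procr at 27.3 to 61.1 CPM and Fgd5 at 9.16 to 34.8 CPM, and HSC libraries held Flt3 at 65.2 to 178 CPM and Cd48 at 20.9 to 79.8 CPM. HSC libraries also differed technically. The 4 with the fewest detected genes, the 4 with the highest share of ribosomal RNA among the rest and the other 5 were therefore also compared apart, and each of these technical groups held both treatments. In MPPs the treatments themselves differed in depth, with 11252479 and 14691375 counts in the PBS libraries and 17555267 to 32769369 in the MTP10-HDL libraries.

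In HSCs, none of the 10 regulators passed the threshold, an adjusted p (false discovery rate, FDR) of 0.05 in edgeR's quasi-likelihood test. The count was 0 of 10, against 0% of all genes tested, and it was also 0 with DESeq2 and with limma voom. None had an unadjusted edgeR p under 0.05, against 8.83% of all genes. Of the 21 alternatives run for each regulator, 6 gave Mllt3 and 7 gave Bmi1 an unadjusted p under 0.05 (limma voom and the fit without PBS 1 for both), and none gave it to any other of the 10 genes. None had groups that did not overlap, against 0.343%. The fold change (MTP10-HDL over PBS) was below 0 on the log2 scale for 7 of the 10 and for 52.3% of all genes, and the median log2 fold change was -0.09 for the 10 genes and -0.02 for all genes. In such bulk libraries fewer cells of a type and less RNA per cell cannot be told apart.

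In MPPs, most of the regulators lay lower after MTP10-HDL, with Hlf at 0.533-fold and Gfi1b at 0.588-fold of its PBS level, but none passed the FDR threshold. The count past it was again 0 of 10, against 0% of all genes, and 0 with DESeq2 and with limma voom. Unadjusted edgeR p-values were under 0.05 for 2 of the 10, Hlf and Gfi1b, both lower, against 4.06% of all genes that were lower at this level. For 5 of the 10 (Hlf, Mecom, Prdm16, Gfi1b and Mllt3) every MTP10-HDL library lay below both PBS libraries, against 12.3% of all genes. The fold change was below 0 for 9 of the 10 and for 48% of all genes. The median log2 fold change of the 10 was -0.35, and that of all genes 0.02. Of the 9, 8 stayed below 0 under every alternative analysis that gave them a value, and the exception was Lyl1. Without PBS 2, 0 of the 10 had an unadjusted edgeR p under 0.05 in MPPs. Without MTP10-HDL 1, MTP10-HDL 2 or PBS 3 it was 1, Hlf, and without MTP10-HDL 3 it was 2, Hlf and Prdm16.

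**Figure D1:**
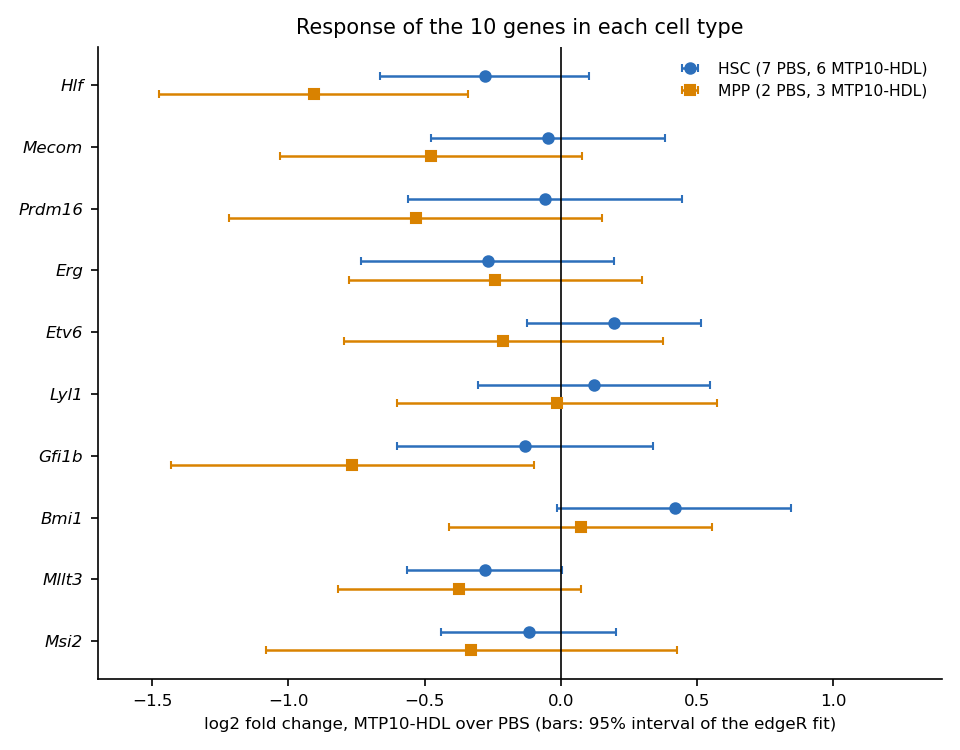
Log2 fold changes (x axis, MTP10-HDL over PBS) of the 10 regulators (y axis) with their 95% intervals from the edgeR fits, in HSCs (circles, 7 PBS and 6 MTP10-HDL libraries) and MPPs (squares, 2 and 3 libraries). All 10 HSC intervals include 0, and the MPP intervals of Hlf (-1.48 to -0.34) and Gfi1b (-1.43 to -0.10) lie below it.

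Hlf (ENSMUSG00000003949, chromosome 11, 90336535 to 90390917) encodes a basic leucine zipper factor of the proline and acidic amino acid rich family, which marks stem cells and restrains their cycling. In MPPs its level was 594 CPM in PBS 2 and 478 CPM in PBS 3, and 346, 229 and 282 CPM in MTP10-HDL 1, 2 and 3. All 3 treated libraries thus lay below both controls. The log2 fold change was -0.91 (SE 0.244), with an edgeR p of 0.0064 and an adjusted p of 0.538. Across the alternatives that adjusted p ranged from 0.0628 (DESeq2) to 1, and the fold change from -1.07 to -0.75. In HSCs Hlf was at 473 CPM in the lowest PBS library, 649 CPM at the median and 893 CPM in the highest, and at 354, 592 and 696 CPM, in the same order, in the MTP10-HDL libraries. The HSC groups overlapped, and PBS 4 and PBS 6, at 891 and 893 CPM, stood above all other libraries. The HSC log2 fold change was -0.28 (SE 0.181, edgeR p 0.141, adjusted p 0.658), and it was -0.17 without MTP10-HDL 1, the lowest library. Within the technical groups the difference was -0.18 (fewest genes), -0.65 (most ribosomal RNA) and -0.02 (other libraries).

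Tef and Dbp encode the other leucine zipper factors of this family, known for circadian output, and Nfil3 encodes a repressor that binds the same DNA element. Tef had a log2 fold change of -0.63 in HSCs (edgeR p 0.0108, adjusted p 0.458), with means of 16.5 ± 1.89 CPM in PBS (SD, n = 7) and 10.7 ± 3.12 CPM in MTP10-HDL (n = 6). In MPPs Tef was at 35.0 and 44.8 CPM in PBS and at 25.6 to 29.6 CPM in MTP10-HDL, with a log2 fold change of -0.51 (edgeR p 0.0459, adjusted p 0.791). Tef thus had the same sign as Hlf in both cell types, and its MPP groups did not overlap. Dbp had log2 fold changes of -0.16 in HSCs and -0.29 in MPPs, and Nfil3 of 0.86 in HSCs and 0.49 in MPPs, all with an edgeR p above 0.1.

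Mecom (ENSMUSG00000027684, chromosome 3, 29951296 to 30509759) and Prdm16 (ENSMUSG00000039410, chromosome 4, 154316122 to 154637360) encode zinc finger proteins of the PR-domain family, and both are needed to maintain stem cells. In MPPs Mecom was at 81.8 and 69.3 CPM in PBS 2 and 3 and at 56.4, 42.2 and 64.3 CPM in MTP10-HDL 1, 2 and 3. Prdm16 was at 27.8 and 23.1 CPM in PBS and at 16.9, 12.96 and 23.06 CPM in MTP10-HDL. Neither gene's groups overlapped, although for Prdm16 the third treated library and PBS 3 were nearly equal. The log2 fold changes were -0.48 (SE 0.239, edgeR p 0.0827, adjusted p 0.819) for Mecom and -0.53 (SE 0.294, edgeR p 0.109, adjusted p 0.844) for Prdm16. Both were lowest in MTP10-HDL 2, and without this library the values were -0.33 and -0.36.

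In HSCs Mecom ranged from 91.6 to 214 CPM in PBS (median 175) and from 115 to 214 CPM in MTP10-HDL (median 159). Prdm16 ranged from 14.9 to 54.0 CPM in PBS (median 32.0) and from 21.97 to 43.4 CPM in MTP10-HDL (median 36.0). The controls spanned almost the whole range of the treated libraries for both genes, PBS 1 was the lowest of all 13 libraries for both, and PBS 4 was the highest control. The log2 fold changes were -0.05 (95% interval -0.47 to 0.38) and -0.06 (-0.56 to 0.44), whose sign changed with the processing. In the technical groups both genes lay higher after MTP10-HDL among the libraries with the fewest genes (0.50 for Mecom and 0.49 for Prdm16) and lower in the other 2 groups. The further PR-domain genes Prdm1 and Prdm2 had log2 fold changes of -0.69 and -0.04 in HSCs and of -0.70 and -0.16 in MPPs, with edgeR p-values above 0.1.

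Erg (ENSMUSG00000040732, chromosome 16, 95359169 to 95586600) and Etv6 (ENSMUSG00000030199, chromosome 6, 134035700 to 134270158) encode ETS factors. Erg activates stem cell genes together with Gata2 and Runx1, and Etv6 is a repressor needed for survival of adult stem cells. In HSCs Erg ranged from 232 to 467 CPM in PBS (median 343) and from 172 to 409 CPM in MTP10-HDL (median 284). Etv6 ranged from 270 to 564 CPM in PBS (median 382) and from 404 to 522 CPM in MTP10-HDL (median 470). The groups overlapped for both genes, but each of the 6 treated libraries exceeded the median control for Etv6. The log2 fold changes were -0.27 (SE 0.22, edgeR p 0.238, adjusted p 0.723) for Erg and 0.20 (SE 0.151, edgeR p 0.213, adjusted p 0.705) for Etv6. Within technical groups Etv6 differed by 0.08, -0.05 and 0.53, and Erg by 0.14, -0.48 and -0.40, in the order fewest genes, most ribosomal RNA, other libraries.

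In MPPs Erg was at 207 and 281 CPM in PBS 2 and 3 and at 182, 198 and 241 CPM in MTP10-HDL 1, 2 and 3. Etv6 was at 388 and 442 CPM in PBS and at 430, 269 and 376 CPM in MTP10-HDL. Both genes overlapped between treatments, and the low Etv6 value belonged to MTP10-HDL 2. The log2 fold changes were -0.24 (95% interval -0.78 to 0.30) for Erg and -0.21 (-0.80 to 0.38) for Etv6. Without PBS 3 the Erg value was -0.002, and without MTP10-HDL 2 the Etv6 value was -0.04. Fli1, the ETS gene most similar to Erg, had a log2 fold change of 0.28 in HSCs (edgeR p 0.0187, adjusted p 0.495), from 158 ± 18.2 CPM in PBS (SD, n = 7) to 192 ± 10.1 CPM in MTP10-HDL (n = 6), and of -0.17 in MPPs (edgeR p 0.531). Etv3, a further ETS repressor gene, was at -0.003 in HSCs and -0.29 in MPPs on the same scale.

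Erg is also active in endothelium, whose markers were therefore summed in each library. The sum of 13 endothelial markers was 141 to 216 CPM in PBS and 130 to 197 CPM in MTP10-HDL among HSC libraries, and 240 and 296 CPM in PBS and 266 to 380 CPM in MTP10-HDL among MPP libraries. In MPPs Sox17 and Nos3 had 0 counts in every library and Cdh5 was at 0.265 to 2.99 CPM. Other endothelial markers, which stem and progenitor cells can also express, were well above 0 in the MPP libraries, with Pecam1 at 88.5 to 131 CPM, Egfl7 at 77.3 to 219 CPM, Emcn at 31.4 to 50.1 CPM and Tek at 9.46 to 16.6 CPM. In HSCs 9 of the 13 could be tested, of which 6 were lower (52.3% of all genes). Of the 9, 1 had an unadjusted edgeR p under 0.05 (4.47% of all genes were lower at this level). This was Stab2 (log2 fold change -1.11, edgeR p 0.0119), while Pecam1 was at 0.33 (edgeR p 0.0525). In MPPs 10 could be tested, 5 in each direction (48% of all genes were lower). Again 1 was lower with an unadjusted edgeR p under 0.05 (4.06% of all genes), Stab2 (-3.56, edgeR p 0.00319), from 5.34 to 0.434 CPM. Fabp4 was at -1.60 (edgeR p 0.0698). The part of endothelium in the Erg values was not tested.

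Lyl1 (ENSMUSG00000034041, chromosome 8, 84701423 to 84704716) encodes a helix-loop-helix factor closely related to Tal1. In HSCs it ranged from 41.0 to 100 CPM in PBS (median 52.2) and from 59.0 to 85.4 CPM in MTP10-HDL (median 65.3). Each of the 6 treated libraries exceeded the median control, but 3 of the 7 controls (PBS 1, 4 and 6) lay above the MTP10-HDL median, and the log2 fold change was 0.12 (SE 0.202, edgeR p 0.554, adjusted p 0.861). In MPPs Lyl1 was at 114 and 144 CPM in PBS 2 and 3 and at 105, 162 and 116 CPM in MTP10-HDL 1, 2 and 3. It was the one regulator that was highest in MTP10-HDL 2, and its log2 fold change was -0.01 (95% interval -0.60 to 0.57, edgeR p 0.956). Tal1 had log2 fold changes of 0.13 in HSCs (edgeR p 0.585) and -0.26 in MPPs (edgeR p 0.205).

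Gfi1b (ENSMUSG00000026815, chromosome 2, 28609450 to 28621982) encodes a zinc finger repressor that limits the number of stem cells and is required for red cell and platelet formation. In MPPs it was at 14.0 and 12.3 CPM in PBS 2 and 3 and at 8.34, 6.96 and 7.92 CPM in MTP10-HDL 1, 2 and 3. The 3 treated libraries were close to each other and all below the controls. The log2 fold change was -0.77 (SE 0.287, 95% interval -1.43 to -0.10, edgeR p 0.0297, adjusted p 0.748). In HSCs Gfi1b ranged from 17.1 to 34.4 CPM in PBS (median 20.4) and from 15.7 to 30.3 CPM in MTP10-HDL (median 21.2). These groups overlapped almost wholly, with a log2 fold change of -0.13 (SE 0.222, edgeR p 0.561, adjusted p 0.863). Its paralog Gfi1, which acts in stem cells and granulocytes, had log2 fold changes of -0.16 in HSCs (edgeR p 0.594) and 0.06 in MPPs (edgeR p 0.847).

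Red cell and platelet precursors also express Gfi1b, so their markers are given beside it. In MPPs the sum of 14 erythroblast markers was 566 and 855 CPM in PBS and 399 to 470 CPM in MTP10-HDL, without overlap. Of 13 tested, 12 were lower and 7 had an unadjusted edgeR p under 0.05 (4.06% of all genes were lower at this level). They were led by Slc4a1, an anion exchanger of the red cell membrane (log2 fold change -5.92, edgeR p 3.14e-05, adjusted p 0.0928), and Hbb-bs, a beta globin (-2.94, edgeR p 0.00245). Slc4a1 was low, with 185 reads over all MPP libraries, at 5.04 and 8.165 CPM in PBS and 0.071 to 0.165 CPM in MTP10-HDL. Most of the sum was Car2, at a mean of 613 CPM in PBS, and the next highest was Hbb-bs at 24.5 CPM. In HSCs the erythroblast sum was 666 to 1276 CPM in PBS and 365 to 701 CPM in MTP10-HDL. All 13 tested were lower there, 11 of them with an unadjusted edgeR p under 0.05 (4.47% of all genes), among them Ermap (log2 fold change -1.77), while Gfi1b itself was at -0.13. Of 13 megakaryocyte and platelet markers, summed at 315 and 347 CPM in PBS and 228 to 284 CPM in MTP10-HDL in MPPs, 10 were tested and 6 were lower. At an unadjusted edgeR p under 0.05, 1 was lower (4.06% of all genes) and 1 higher (2.17% of all genes). The higher one was Itga2b, at 0.63 (edgeR p 0.0175). Gp6 and Gp1bb had 0 counts in every MPP library, and Gp1bb had 2 reads over all HSC libraries. Other markers of the list were read in MPPs, with Nrgn at 55.7 to 122.5 CPM, Itga2b at 20.75 to 36.15 CPM and Pf4 at 2.59 to 10.3 CPM. In HSCs the platelet sums overlapped (362 to 950 CPM in PBS, 479 to 929 CPM in MTP10-HDL), with 7 of 12 tested higher, among them Itga2b (0.51) and Gp9 (0.47). The part of these cells in the Gfi1b result was not tested.

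**Figure D2:**
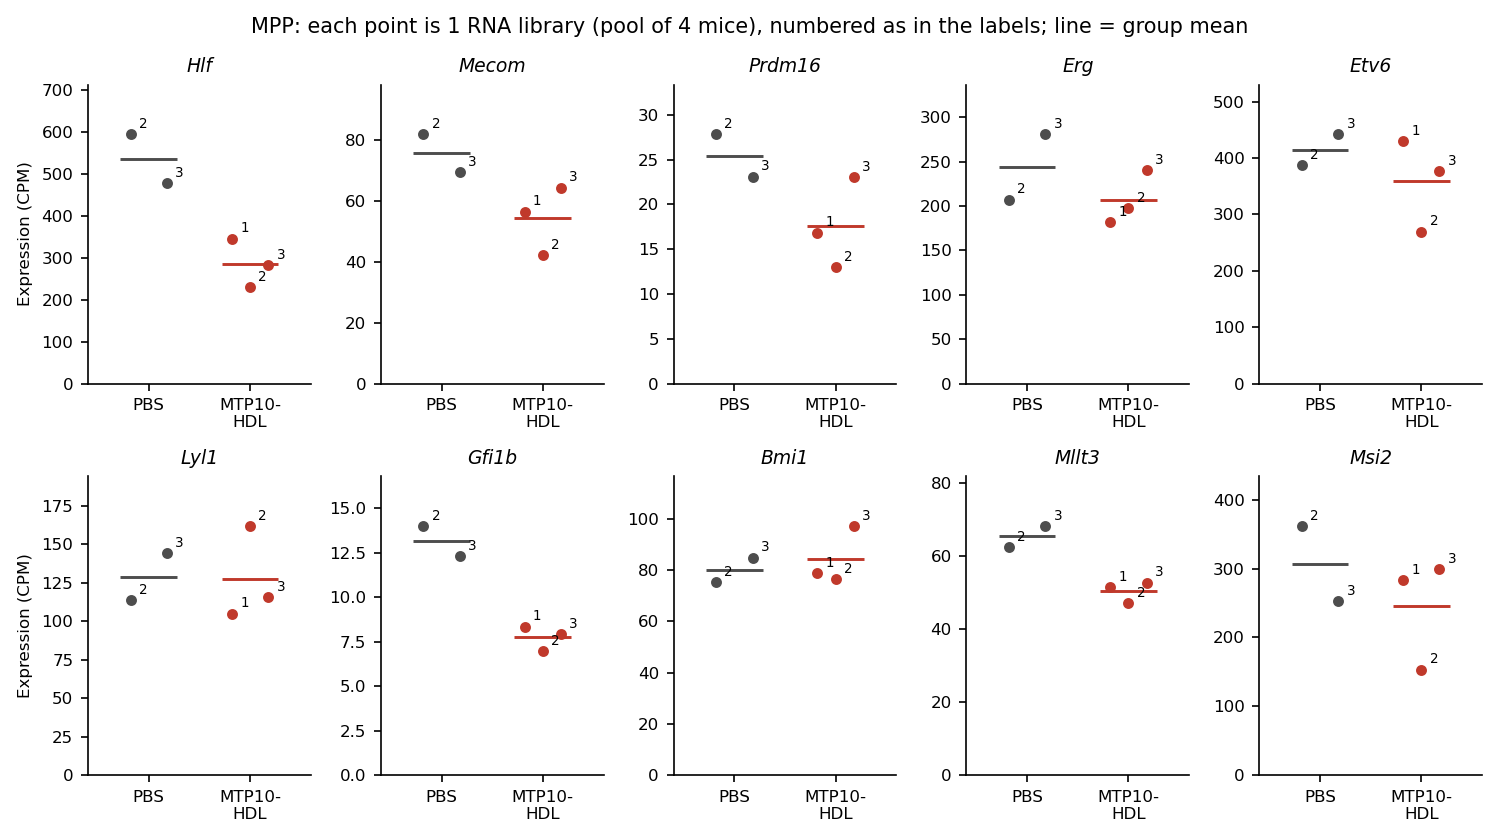
Expression in CPM (y axes, from 0) of each regulator in the 5 MPP libraries, with the library number beside each point and the group mean as a line (2 PBS and 3 MTP10-HDL libraries). Hlf (229 to 346 CPM against 478 and 594 CPM), Mecom, Prdm16, Gfi1b and Mllt3 show no overlap between treatments, and MTP10-HDL 2 is the lowest library for 7 of the 10 genes.

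Bmi1 (ENSMUSG00000026739, chromosome 2, 18677018 to 18686629) encodes a polycomb protein that silences the cell cycle inhibitor locus Cdkn2a and by this sustains self-renewal. In HSCs it ranged from 21.1 to 46.1 CPM in PBS (median 31.7) and from 28.8 to 61.7 CPM in MTP10-HDL (median 42.4). The groups overlapped, with 5 of 6 treated libraries above the PBS median and MTP10-HDL 4 below it. The log2 fold change of 0.42 (SE 0.204, 95% interval -0.01 to 0.85) was the largest in size among the 10 in HSCs, with an edgeR p of 0.0559 and an adjusted p of 0.573. Its sign differed between technical groups, at 0.94 among the libraries with the fewest genes, -0.32 among those with the most ribosomal RNA and 0.55 among the others. In MPPs Bmi1 was at 75.3 and 84.9 CPM in PBS 2 and 3 and at 78.9, 76.4 and 97.3 CPM in MTP10-HDL 1, 2 and 3. These values overlapped, with a log2 fold change of 0.07 (SE 0.207, edgeR p 0.735).

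Of the 11 genes of the Bmi1 complex and its targets that could be tested in HSCs, 5 were higher and 6 lower (median log2 fold change -0.04), and of 12 in MPPs 5 were higher and 7 lower (median -0.15). Phc1, a scaffold subunit, was at 0.46 in HSCs (edgeR p 0.0179, adjusted p 0.494). Cbx7, the chromodomain subunit that reads the polycomb histone mark in stem cells, was at -0.41 in HSCs (edgeR p 0.0436, adjusted p 0.562). In MPPs Cbx7 was at 52.8 and 63.5 CPM in PBS and at 30.5 to 35.9 CPM in MTP10-HDL, a log2 fold change of -0.80 (edgeR p 0.00475, adjusted p 0.485) with no overlap, while Cbx8, an alternative subunit, was at 0.62 (p 0.15). Cdkn2a itself was at 1.32 CPM or less in every library, and Cdkn2b was too low to test. The Bmi1 paralogs in HSCs were at -0.12 for Pcgf1, 0.36 for Pcgf2, 0.04 for Pcgf3, -0.20 for Pcgf5 and 0.12 for Pcgf6 on the log2 scale. In MPPs they were at 0.46, -0.53, -0.03, 0.02 and 0.29 in the same order, each with an edgeR p above 0.1.

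Mllt3 (ENSMUSG00000028496, chromosome 4, 87769925 to 88033407) encodes AF9, a reader of acylated histones that joins elongation and Dot1l complexes and sustains stem cells in culture. In HSCs it ranged from 154 to 240 CPM in PBS (median 198) and from 149 to 217 CPM in MTP10-HDL (median 158). PBS 1 lay among the treated libraries and MTP10-HDL 5 among the controls, and 5 of the 6 treated libraries were below the PBS median. The log2 fold change was -0.28 (SE 0.135, 95% interval -0.56 to 0.005), with an edgeR p of 0.0536 and an adjusted p of 0.567. Mllt3 lay lower after MTP10-HDL in all 3 technical groups, at -0.15, -0.35 and -0.28. Of the 10 regulators only Hlf did so too, and by no more than -0.02 among the other libraries. Each group held few libraries per treatment, and the share of all genes lower in all 3 was not computed. In MPPs Mllt3 was at 62.5 and 68.3 CPM in PBS 2 and 3 and at 51.5, 47.2 and 52.8 CPM in MTP10-HDL 1, 2 and 3. The treated libraries again lay below both controls, with a log2 fold change of -0.37 (SE 0.192, edgeR p 0.0896, adjusted p 0.819).

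The partner genes of Mllt3 held Ell2, an elongation factor that is also high in antibody-secreting cells, as the one gene with an unadjusted edgeR p under 0.05 in either cell type. Its log2 fold change was -0.96 in HSCs (edgeR p 0.0284) and -0.91 in MPPs (edgeR p 0.0204). This was 1 of 15 tested in each cell type, against 4.47% of all genes lower at this level in HSCs and 4.06% in MPPs. In HSCs the Ell2 groups overlapped, at 40.0 to 226.5 CPM in PBS and 16.4 to 72.9 CPM in MTP10-HDL. In MPPs Ell2 was at 39.6 and 76.2 CPM in PBS and at 25.0 to 36.7 CPM in MTP10-HDL. Of 15 tested, 5 were higher and 10 lower in both HSCs (median -0.10) and MPPs (median -0.15), against 52.3% and 48% of all genes lower. Ccnt1 was at -0.14 in HSCs and Kmt2a at -0.39 in MPPs. The paralog Mllt1 was at 0.05 in HSCs and 0.18 in MPPs. Immunoglobulin genes took 6.2% and 12.5% of counts in the PBS MPP libraries and 2.76% to 4.26% in the MTP10-HDL ones, and their relation to Ell2 was not tested.

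Msi2 (ENSMUSG00000069769, chromosome 11, 88339382 to 88718306) encodes an RNA-binding protein that favours symmetric renewal of stem cells. In HSCs it ranged from 461 to 676 CPM in PBS (median 624) and from 436 to 724 CPM in MTP10-HDL (median 502). Both the lowest and the highest of the 13 libraries were treated ones (MTP10-HDL 1 and 2), and the log2 fold change was -0.12 (SE 0.152, edgeR p 0.451, adjusted p 0.825). In MPPs Msi2 was at 362 and 253 CPM in PBS 2 and 3 and at 283, 153 and 299 CPM in MTP10-HDL 1, 2 and 3. PBS 3 lay between treated libraries, and the log2 fold change of -0.33 (95% interval -1.08 to 0.43, edgeR p 0.344) was -0.05 without PBS 2 and -0.56 without PBS 3. Its paralog Msi1 was low, at 4.70 CPM or less in HSC libraries, with log2 fold changes of -0.09 in HSCs and -1.75 in MPPs (edgeR p 0.0771). Of 11 partner genes tested in each cell type, 6 were higher in HSCs (median 0.08) and 7 in MPPs (median 0.04), none with an unadjusted edgeR p under 0.05. The lowest p-values among them belonged to Pabpc1 (0.24) and Ythdf2 (0.35) in HSCs and to Pabpc1 (0.32) and Igf2bp2 (-0.53) in MPPs, given as log2 fold changes.

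**Figure D3:**
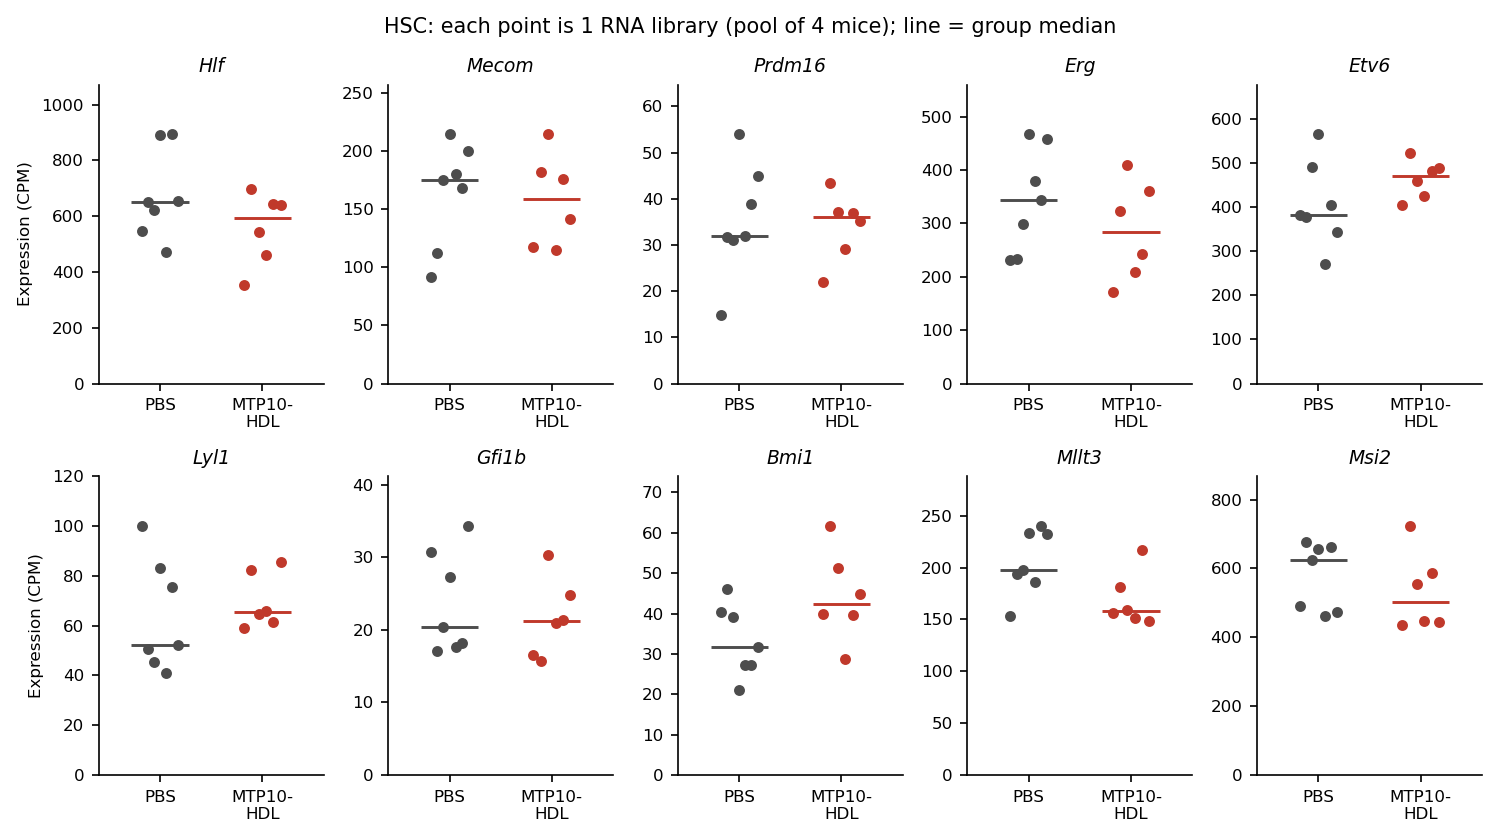
Expression in CPM (y axes, from 0) of each regulator in the 13 HSC libraries, with the group median as a line (7 PBS and 6 MTP10-HDL libraries). The groups overlap for all 10 genes. For Etv6 and Lyl1 the 6 treated libraries exceed the PBS median, and for Mllt3 5 of 6 are below it.

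Genes of the corepressors through which these factors act were mixed in direction. Of the 10 genes of the Gfi1b corepressor complex, 6 were higher and 4 lower in HSCs (median 0.03), and 4 were higher and 6 lower in MPPs (median -0.11). Kdm1a, the histone demethylase of the complex, was at 0.17 and Rcor1, its scaffold, at -0.12 in HSCs (edgeR p 0.236 and 0.402). In MPPs Gse1 was at -0.71 (edgeR p 0.0385) and Hdac1 at 0.45 (p 0.0569). Of the 10 corepressors bound by Mecom, Prdm16 or Etv6, 7 were higher in each cell type, with medians of 0.08 in HSCs and 0.03 in MPPs. The methyltransferase gene Suv39h1 was at 0.31 in HSCs (edgeR p 0.123) and 0.54 in MPPs (p 0.0244), and Hdac3 was at 0.29 in MPPs (p 0.289).

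The wider set of 25 stem cell transcription factors was split in HSCs, with 12 higher and 13 lower (median -0.01), against 52.3% of all genes lower. Of the 25, 3 were lower with an unadjusted edgeR p under 0.05 (4.47% of all genes). In MPPs 24 were tested, of which 19 were lower (48% of all genes) and 5 higher (median -0.23). Egr1, an immediate early gene, was at -1.82 in HSCs (edgeR p 0.00606, adjusted p 0.387) and -2.71 in MPPs (p 0.0255, adjusted p 0.736). Its PBS libraries spread from 18.5 to 505 CPM in HSCs and were at 24.1 and 351.5 CPM in MPPs. The MTP10-HDL libraries of MPPs, at 12.1 to 53.7 CPM, overlapped with these controls. Sox18 was at -2.03 in HSCs (p 0.0164), at a mean of 3.13 CPM in PBS. Satb1, a chromatin organizer of lymphoid progenitors, was at 148 CPM in both PBS MPP libraries and at 233 to 309 CPM in MTP10-HDL (log2 fold change 0.83, edgeR p 0.00509, adjusted p 0.491).

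Surface genes that separate stem cells from progenitors were set beside the regulators. In MPPs 14 of 16 stem cell surface and dormancy genes tested were lower (median -0.39), against 48% of all genes. Of the 16, 8 were lower without overlap (12.3% of all genes), 5 were lower with an unadjusted edgeR p under 0.05 (4.06%) and 1 was higher at that level (2.17%). Procr, the endothelial protein C receptor gene, was at 47.0 and 61.1 CPM in PBS and 27.3 to 30.5 CPM in MTP10-HDL (log2 fold change -0.88, edgeR p 0.00339, adjusted p 0.426). Of 9 progenitor surface genes, 8 were higher (median 0.35), 6 of them without overlap (12% of all genes) and 4 with an unadjusted p under 0.05 (2.17% of all genes). Among them Il7r, the interleukin-7 receptor gene, was at 1.38 (edgeR p 0.00032, adjusted p 0.226). In HSCs 11 of 17 stem cell surface genes were higher (median 0.10), led by Clca3a1 (0.72, edgeR p 0.0342) and Itga6 (0.35, p 0.0458). There 7 of 9 progenitor genes were higher (median 0.18), among them Csf3r (0.40, p 0.0287). None of these genes passed the FDR threshold, and the share of more stem-like cells within each sorted pool was not measured.

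Averaged over the 10 regulators, HSC libraries of the same treatment were spread widely. The mean of log2 CPM, centred on each gene's mean over the 13 libraries, ranged from -0.22 (PBS 5) to 0.32 (PBS 4) in controls and from -0.36 (MTP10-HDL 1) to 0.22 (MTP10-HDL 2) in treated libraries. PBS 4 lay above the median of all libraries for 9 of the 10 genes and MTP10-HDL 1 below it for 9 of the 10. The exception in PBS 4 was Bmi1, at its lowest value of 21.1 CPM. MTP10-HDL 1 also had the highest summed neutrophil and monocyte markers of any HSC library, 7320 CPM against 242 to 4093 CPM in PBS. All 16 of these markers had a positive log2 fold change in HSCs (median 0.87, led by Ccr2 at 1.15 and Csf1r at 1.19, edgeR p 0.0732 and 0.0853). The part of these cells in the HSC levels of the regulators was not tested. In MPPs the same mean was 0.25 and 0.22 in PBS 2 and 3, and -0.10, -0.37 and 0.001 in MTP10-HDL 1, 2 and 3, so the treatments did not overlap.

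**Figure D4:**
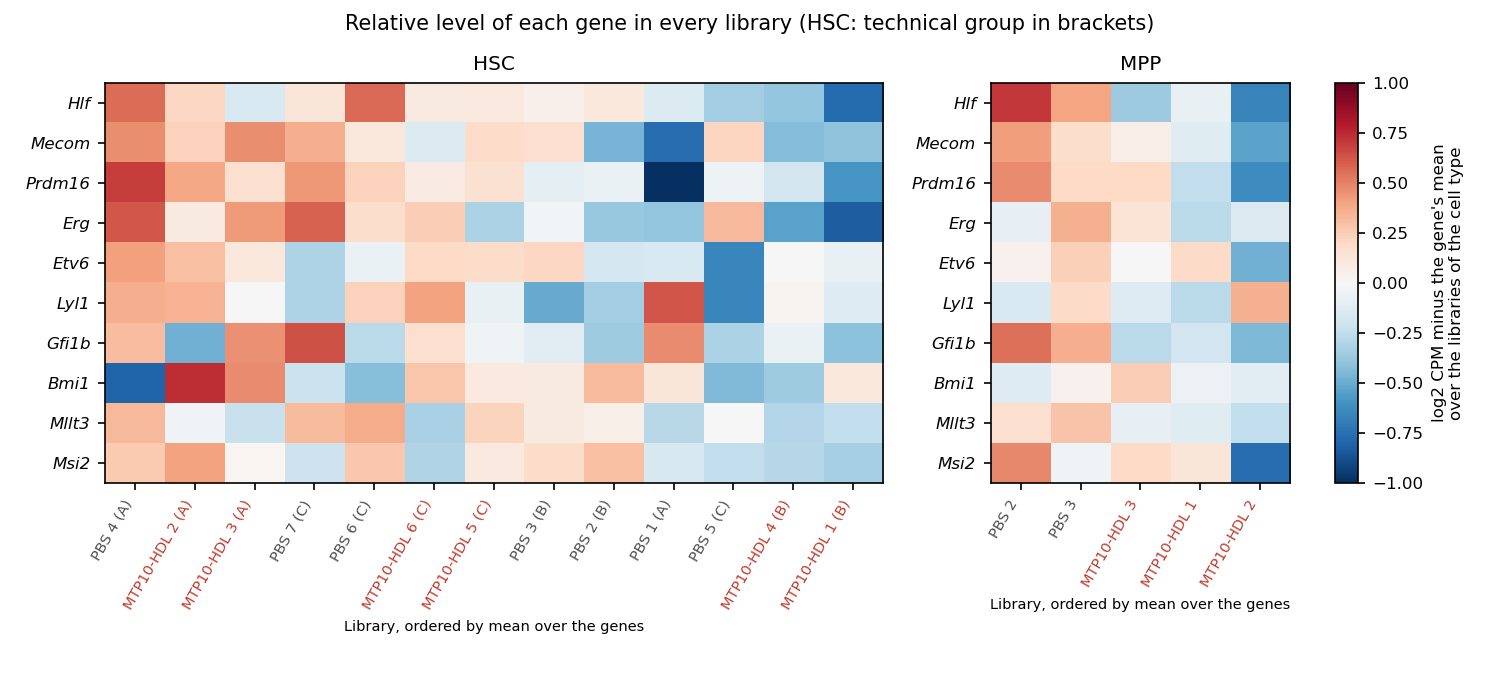
Heat map of log2 CPM minus each gene's mean over the libraries of a cell type (colour scale from -1 to 1), with regulators in rows and libraries in columns, ordered from the highest to the lowest mean over the 10 genes, PBS names in grey and MTP10-HDL names in red. Letters beside HSC libraries give the technical group (A for fewest detected genes, B for most ribosomal RNA, C for the others). HSC treatments alternate from PBS 4 (0.32) to MTP10-HDL 1 (-0.36), whereas both PBS libraries of MPPs stand to the left.

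Ribosomal RNA in the MPP libraries did not overlap between treatments, at 1.26% and 1.47% of counts in PBS and 0.508% to 0.915% in MTP10-HDL. The summed markers of B cells and of neutrophils and monocytes did overlap, and those of T and NK cells met at 64.5 CPM. B cell markers summed to 408 and 541 CPM in PBS and 329 to 500 CPM in MTP10-HDL, and 7 of 12 were lower (median -0.15), led by Ms4a1 (log2 fold change -4.11, edgeR p 0.000371) and Fcrla (-1.45, p 0.00186). In HSCs all 11 B cell markers tested were lower (median -1.56, with Fcrla at -1.78), 7 of them with an unadjusted edgeR p under 0.05 (4.47% of all genes). Their sums were 54.0 to 478 CPM in PBS and 52.1 to 148 CPM in MTP10-HDL. Immunoglobulin genes took 0.271% to 19.85% of counts in PBS and 0.374% to 4.90% in MTP10-HDL among HSC libraries. The part of B lineage cells in the HSC levels of the regulators was not tested. Neutrophil and monocyte markers overlapped in MPPs (737 and 891 CPM in PBS, 357 to 1818 CPM in MTP10-HDL), with 11 of 16 higher (median 0.23, Csf1r at 0.50 and Cd68 at -0.53). T and NK cell markers were at 57.7 and 64.5 CPM in PBS and 64.5 to 95.4 CPM in MTP10-HDL among MPP libraries, and at 56.8 to 148 CPM in PBS and 76.3 to 130 CPM in MTP10-HDL among HSC libraries. Of these, 4 of 6 tested were higher in MPPs (median 0.54, with Ncr1 at 1.503 and Cd4 at -0.65), and 4 of 7 in HSCs (median 0.11, with Nkg7 at 0.59 and Klrb1c at 0.44). The part of depth, ribosomal RNA and these cell types in the lower MPP levels of the regulators was not tested, and with 5 libraries those that did not overlap between the groups (depth, ribosomal RNA, the immunoglobulin share and the erythroblast and megakaryocyte sums) cannot be told apart from the treatment.

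The response was then compared between the cell types in 1 fit of all 18 libraries. None of the 10 regulators had a response that differed past the FDR threshold in edgeR's test of the interaction, against 0.00409% of all genes, and none had an unadjusted p under 0.05, against 3.86%. The MPP response of Hlf was lower than its HSC response by a log2 difference of -0.61 (SE 0.361, 95% interval -1.36 to 0.14, edgeR p 0.105, adjusted p 1). For Gfi1b the difference was -0.62 (-1.504 to 0.27, p 0.164). Differences of Mecom (-0.42), Prdm16 (-0.46), Etv6 (-0.38), Bmi1 (-0.33), Msi2 (-0.20), Lyl1 (-0.11) and Mllt3 (-0.07) were smaller in size, and that of Erg was 0.05. The intervals of Hlf and Gfi1b thus reached from a much lower MPP response to a slightly higher one.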

How the data were processed

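RNA sequencing libraries of sorted HSCs (7 PBS, 6 MTP10-HDL) and MPPs (2 PBS, 3 MTP10-HDL) were analysed, and the ATAC-seq samples of the series were not analysed here. The authors deposited raw read counts per Ensembl gene, as whole numbers, in 1 table per cell type. Per the submitters' processing notes, reads were aligned to mm10 with STAR 2.5.2b after CASAVA 1.8.2 (HSCs) or STAR 2.7.2a (MPPs), with DESeq2 1.24 in R 3.6.1. Neither the counting tool nor the annotation nor the strand setting is given in the sources used here, so reads of genes that overlap a member (all but Hlf, Erg and Bmi1 have a RefSeq gene in their span, such as Nfix at the end of Lyl1) could not be told apart from it. HSC PBS samples are numbered 1 to 6 and 8 in the labels and 1 to 7 among the columns, so the columns' numbers are used and these columns were taken as a group.

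Each cell type was fitted apart with edgeR 4.0.16 in R 4.3.3 (TMM scaling, filterByExpr, quasi-likelihood F test), with Benjamini-Hochberg adjustment over all genes tested and an FDR threshold of 0.05. The interaction used a joint fit with 4 group means. CPM are after TMM scaling, and log2 CPM used a prior count of 2. Scripts were tested on simulated data. Alternatives were DESeq2 1.42.0, limma 3.58.1 (voom), DESeq2 size factors, no filter, a mean of at least 10 CPM, each library left out, PBS 5 and 7 left out together, the technical group as a term, and the replicate number as a block. After centring within each group, same-numbered HSC libraries correlated at -0.185 to 0.192 over genes and MPP libraries at -0.168 and -0.029. The main fits took libraries as unpaired. This check cannot exclude pairing, since the centred profiles of 2 PBS MPP libraries mirror each other. In HSCs the PBS columns are not numbered as the labels are.

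The members and the gene lists (paralogs, partners, stem and progenitor genes, markers of other cells) were chosen with earlier results of these data known. All members and paralogs are named. From each other list the genes past the threshold, or else the 2 with the smallest p, are named as values that did not pass. Some genes of these lists are not reported here by name. Further marker genes named for levels or at 0 counts, and Cdkn2a and Cdkn2b, were chosen after their values were seen. Positions and sequences are from RefSeq tables of GRCm38.p6, matched by symbol (10 of 10). Levels were not compared between genes, since exonic lengths were not used here.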

Additional observations from a re-analysis of the deposited data

How the results depend on the processing

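Over 30 fold changes of single regulators (10 in each cell type and 10 differences between them), 362 of 389 alternative values kept their direction and 0 passed the FDR threshold. The HSC median of -0.088 became 0.027 under the replicate block. In HSCs the sign turned for Mecom without a filter (0.026), without PBS 5 and 7 (0.05) and under the replicate block (0.05). It turned for Prdm16 with voom (0.003), without a filter (0.01) and under the block (0.091), for Gfi1b under the block (0.003), and for Lyl1 without PBS 5 and 7 (-0.026). Leaving out each library gave -0.15 (without MTP10-HDL 3) to 0.037 (without MTP10-HDL 4) for Mecom and -0.18 (without PBS 1) to 0.073 (without PBS 4) for Prdm16.

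The MPP median of -0.35 was -0.33 without a filter, -0.39 at a mean of at least 10 CPM (9 genes, since Gfi1b dropped out), -0.45 under the replicate block and -0.45 to -0.28 without single libraries. Lyl1 in MPPs was 0.01 without a filter and 0.10 under the block. Without single libraries it was -0.22 to 0.17, and Bmi1 was -0.041 to 0.163. For the difference between cell types the ranges without single MPP libraries were -0.48 to 0.14 for Msi2, -0.11 to 0.22 for Erg and -0.31 to 0.015 for Lyl1.

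Over all genes DESeq2, run without the filter on low counts, called 90 in HSCs and 153 in MPPs. In edgeR no filter gave 44 and 345 and the block 8 and 43, while limma voom and the main analysis gave 0. MPP calls were 17 without PBS 3. The all-gene median in HSCs shifted from -0.02 to -0.24 with DESeq2 and -0.15 without a filter in edgeR, where the 10 regulators had medians of -0.09 and -0.02. Both of these covered low-count genes too, and with DESeq2 size factors on the filtered genes the all-gene median was -0.03. With 2 control libraries of MPPs, and as few as 78 reads of Gfi1b in an HSC library, small differences were not detectable.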
